A study of Mus musculus with 8 samples.

Results

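The naive pluripotency transcription factors described here are 8 genes, Esrrb, Nr5a2, Nr0b1, Tbx3, Tfcp2l1, Prdm14, Zfp42 and Sall4, read in mouse embryonic stem (ES) cells. They were taken by name, as a fixed set of 8 among 18193 genes with a named probe set, and each probe set annotated to 1 of these symbols alone was used. That gave 20 of the 45037 probe sets tested. A probe set is a group of short oligonucleotides on an Affymetrix array that together give 1 signal for a transcript. The cells carried the strain label Oct4-Gip, a name used for ES cells in which Oct4 regulatory sequences drive a green fluorescent protein and a puromycin resistance gene, and all were at passage 25. RNA was taken on day 4 after lipofection, from 4 samples given an esiRNA against Ctr9 and 4 given an esiRNA against luciferase, the transfection control. Such a reagent is a mixture of small interfering RNAs made by digesting a long double-stranded RNA. Ctr9 is part of the Paf1 complex, an elongation factor of RNA polymerase II, and the comparison asks how each factor's transcript differs between these groups. Nothing in the labels tells separate cultures from repeats of 1 culture, so each p-value reflects how far these 8 arrays scatter, which could be technical variation.

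As background, naive ES cells correspond to the epiblast before implantation. A set of transcription factors around Oct4, Nanog and Sox2 keeps them self-renewing under leukaemia inhibitory factor (LIF), and most of that outer set is shut off when cells move to the primed state of the epiblast after implantation. Esrrb and Nr5a2 are orphan nuclear receptors that bind DNA as monomers at a half-site of the form AGGTCA with a short extension. Nr0b1 (Dax1) belongs to the same family but lacks its DNA-binding domain and acts mostly as a corepressor of partner proteins. Tbx3 is a T-box factor, and Tfcp2l1 a CP2 family factor downstream of LIF and STAT3. Prdm14 is a zinc finger protein that represses de novo DNA methyltransferase and FGF receptor genes. Zfp42 (Rex1), a zinc finger relative of Yy1, is a common marker of the naive state. Sall4, a spalt zinc finger factor that works with the NuRD complex, is also made in primed cells.

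The RefSeq promoter table of GRCm38.p6 held 7 windows for 5 of the 8 genes: Esrrb, Nr5a2, Nr0b1, Tfcp2l1 and Zfp42. Binding letters of some of the factors themselves, or of Oct4 and STAT3, lie in some of these windows. Whether such letters had a part in the changes on the arrays was not tested. The 250 bases before the start site are shown for 1 window of each gene. They are chr12:86360867-86361116 on the plus strand (Esrrb), chr1:136960449-136960698 on the minus strand (Nr5a2), chrX:86191525-86191774 on the plus strand (Nr0b1), chr1:118627695-118627944 on the plus strand (Tfcp2l1) and chr8:43307010-43307259 on the minus strand (Zfp42). Each is written 5′ to 3′ on its gene's strand, and capitals mark the octamer bound by Oct4 (ATTTGCAT), the nuclear receptor half-site (AGGTCA) and the spaced STAT site (TTCNNNGAA).
Esrrb: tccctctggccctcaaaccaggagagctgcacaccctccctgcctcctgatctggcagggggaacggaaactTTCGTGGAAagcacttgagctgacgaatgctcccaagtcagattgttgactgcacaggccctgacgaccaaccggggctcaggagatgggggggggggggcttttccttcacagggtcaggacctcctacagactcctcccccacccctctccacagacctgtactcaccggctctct
Nr5a2: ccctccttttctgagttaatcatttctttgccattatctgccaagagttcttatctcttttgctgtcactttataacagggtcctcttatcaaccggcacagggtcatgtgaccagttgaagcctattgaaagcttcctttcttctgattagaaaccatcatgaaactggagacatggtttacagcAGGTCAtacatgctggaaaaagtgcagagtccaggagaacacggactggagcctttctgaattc
Nr0b1: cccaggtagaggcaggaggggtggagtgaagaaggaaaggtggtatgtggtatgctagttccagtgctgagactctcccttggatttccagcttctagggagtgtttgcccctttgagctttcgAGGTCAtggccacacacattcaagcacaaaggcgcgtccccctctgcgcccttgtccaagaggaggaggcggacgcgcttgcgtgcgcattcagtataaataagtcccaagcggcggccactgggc
Tfcp2l1: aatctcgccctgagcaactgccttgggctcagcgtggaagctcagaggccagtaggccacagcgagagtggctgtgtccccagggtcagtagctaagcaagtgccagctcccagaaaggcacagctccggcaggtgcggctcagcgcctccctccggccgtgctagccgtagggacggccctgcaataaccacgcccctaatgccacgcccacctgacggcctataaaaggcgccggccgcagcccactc
Zfp42: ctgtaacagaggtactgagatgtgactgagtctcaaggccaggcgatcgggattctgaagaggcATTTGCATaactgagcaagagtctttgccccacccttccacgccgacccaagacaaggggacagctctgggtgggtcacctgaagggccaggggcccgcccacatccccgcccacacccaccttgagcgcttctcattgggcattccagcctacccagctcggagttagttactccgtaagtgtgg
The octamer stood only in the Zfp42 window among the 7, from base -186 to -179 before the start, and in 1.6% of all 32851 windows of this length, counting both strands. The half-site, searched without its extension, stood in the window of Nr0b1 (-126 to -121), in the Nr5a2 window shown (-64 to -59) and in 14% of all windows. The other Nr5a2 window and both Esrrb windows lacked it. Nr0b1 itself lacks the domain that would read it. The STAT letters stood in the Esrrb window shown (-178 to -170), not in the other Esrrb window, and in 7.02% of all. No match was found in any of the 7 windows for the T-box half-site GGTGTGA (3.33% of all windows) or the CP2 site, CCAG and again CCAG with any 6 bases between (2.78%), while the common KLF letters CCNCNCCC, not capitalised above, stood in 5 of the 7 against 45.9% of all. CCNCNCCC matches can overlap each other. A match is a description of the letters and not of a bound site.

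With a gene read by its brightest probe set, 7 of the 8 factors were lower in the Ctr9 esiRNA arrays and 1, Sall4, was higher (limma, Benjamini-Hochberg adjusted p under 0.05). Among all 18193 genes 15.0% were lower and 15.8% higher by the same rule, 30.8% in either direction. The 4 values of each group lay wholly apart for the same 7 genes (17.8% of all genes had such groups with the Ctr9 esiRNA arrays lower) and for Sall4 (18.8% with them higher). The members are bright: the dimmest of the 8 probe sets stood at the 87.2 percentile of all probe sets, and of the 3602 genes read at least that brightly 22.8% were lower and 20.9% higher. The median log2 difference of the 8 was -0.87, against 0.0036 over all genes. A fall of at least 0.5 on the log2 scale was passed by 6 of the 8, against 2.82% of all genes and 3.19% of the equally bright ones, and a fall of at least 1 by Tbx3, Nr0b1 and Esrrb, against 0.330% of all genes. In bulk RNA, fewer cells that make a transcript and less of it per cell cannot be told apart.

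**Figure D1:**
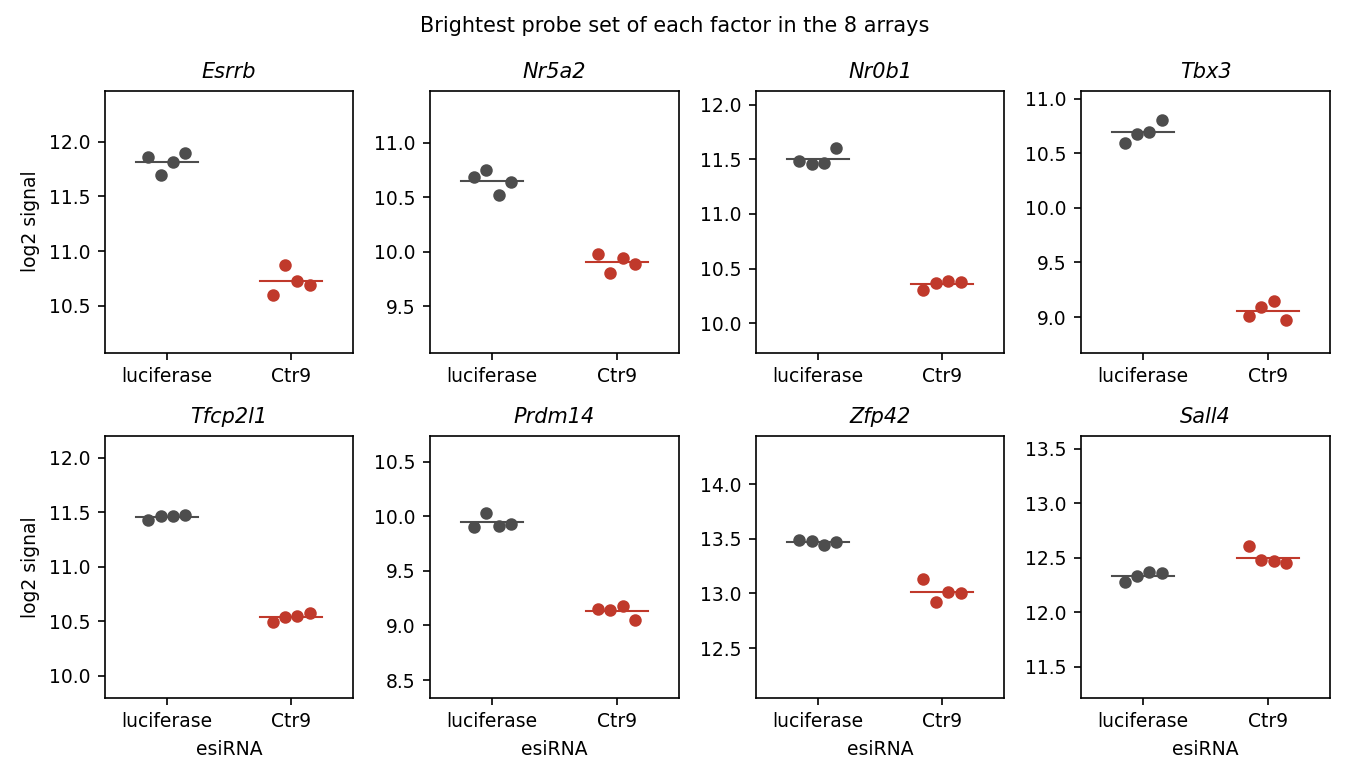
Log2 signal (y axes, all of the same length) of the brightest probe set of each factor in the 4 luciferase (grey) and 4 Ctr9 esiRNA arrays (red), with group means as lines. In 7 panels all 4 red points lie below all grey points, by the widest margin for Tbx3, and for Sall4 they lie slightly above.

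Esrrb, a receptor gene whose product can stand in for Nanog in self-renewal, read 11.86, 11.69, 11.82 and 11.90 in luciferase arrays 1 to 4 and 10.60, 10.88, 10.73 and 10.69 in Ctr9 esiRNA arrays 1 to 4. Every Ctr9 esiRNA value was below every luciferase value, with array 2 the highest of the treated and the lowest of the controls. The signal fell by 53.2%, a log2 difference of -1.10 (SE 0.069, limma adjusted p = 2.81e-06). The dimmest of the 3 Esrrb probe sets by its mean over 8 arrays went from 10.12 ± 0.032 to 8.91 ± 0.096 (SD, n = 4 each), a difference of -1.22 (limma adjusted p = 3.85e-07). The remaining one, with the suffix _x_at, fell by 0.54 (95% interval -0.67 to -0.41), an interval that does not meet those of the others. That suffix marks probe sets some of whose probes can also match other transcripts.

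Nr5a2 (LRH-1) encodes a receptor that can bind regulatory DNA of Pou5f1. Its brightest probe set read 10.69, 10.75, 10.52 and 10.64 with luciferase esiRNA and 9.98, 9.81, 9.94 and 9.89 with Ctr9 esiRNA. The groups did not overlap, and the luciferase arrays were the more spread of the 2 groups. The log2 difference was -0.74 (SE 0.061, limma adjusted p = 1.60e-05), and the signal fell by 40.2%. The next probe sets fell by 0.88 and by 0.49, the smaller one on a set with the suffix _s_at, which marks probes shared by several transcripts. The dimmest Nr5a2 probe set, at 5.07 with luciferase esiRNA, differed by -0.08 and did not pass.

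Nr0b1 has 1 probe set, which read 11.49, 11.46, 11.46 and 11.60 in the luciferase arrays. In the Ctr9 esiRNA arrays it read 10.31, 10.36, 10.38 and 10.38, all within a narrow band and more than 1 log2 unit below the lowest control. The difference was -1.14 (SE 0.049, limma adjusted p = 2.78e-07), so that the signal fell by 54.8%. It stood at place 29 in the order of falls among 18193 genes, with Esrrb at place 41.

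Tbx3, whose product keeps ES cells from differentiating when overproduced, fell most. The brightest of its 5 probe sets read 10.59, 10.68, 10.70 and 10.81 with luciferase esiRNA and 9.01, 9.10, 9.15 and 8.97 with Ctr9 esiRNA. The gap between the lowest control and the highest treated array was 1.44, the widest among the 8 genes. The signal fell by 67.9%, a log2 difference of -1.64 (SE 0.061, limma adjusted p = 1.35e-07), at place 5 in the order of falls. The second probe set, at 9.64 with luciferase esiRNA, fell by 1.73 (SE 0.055). The third in brightness read 7.17, 7.04, 6.69 and 6.76 against 5.94, 5.95, 5.96 and 6.16, and fell by 0.91. Luciferase arrays 1 and 2 stand above 3 and 4 on it, which was not so on the brightest set. The fourth fell by 0.53 from 5.66, and the dimmest, at 3.79, differed by -0.09 and did not pass. The mean over all 5 probe sets was -0.98, the smallest size among the alternatives run.

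Tfcp2l1 read 11.43, 11.46, 11.47 and 11.48 in the luciferase arrays and 10.49, 10.54, 10.55 and 10.58 in the Ctr9 esiRNA arrays on its brightest probe set. Both groups were tight, with SDs of 0.020 and 0.037 (n = 4 each), and far apart. The log2 difference was -0.92 (SE 0.043, limma adjusted p = 4.42e-07), and the signal fell by 47.1%. The other Tfcp2l1 probe sets read 3.47 and 3.44 with luciferase esiRNA, near the dim end of the arrays. They differed by 0.08 and -0.05 without passing, so the call for Tfcp2l1 rests on 1 probe set, and the mean over all 3 was -0.30.

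Prdm14 has 1 probe set, with 9.90, 10.03, 9.92 and 9.93 in the luciferase arrays and 9.15, 9.14, 9.18 and 9.05 in the Ctr9 esiRNA arrays. The groups did not overlap, and the difference was -0.81 (SE 0.050, limma adjusted p = 2.56e-06), and the signal fell by 43.1%. The Prdm14 product is known to repress Dnmt3a, Dnmt3b, Dnmt3l, Fgfr1 and Fgfr2 in ES cells. All 5 of these genes were higher in the Ctr9 esiRNA arrays (15.8% of all genes were), at a median of 0.63. The list was chosen with earlier results of these data known. Dnmt3b and Dnmt3a are also in the list of formative and primed epiblast genes. Whether the fall of Prdm14 had a part in these rises was not tested. Dnmt3b, a de novo DNA methyltransferase gene, rose by 1.52 (SE 0.052), Fgfr2, an FGF receptor gene, by 0.83 (SE 0.085), and Dnmt3l, a cofactor of the methyltransferases, by 0.63 (SE 0.066). The 5 probe sets of Dnmt3a rose by 0.35 to 0.61.

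Zfp42 read 13.49, 13.48, 13.44 and 13.47 with luciferase esiRNA and 13.13, 12.92, 13.01 and 13.00 with Ctr9 esiRNA on its only probe set. The treated arrays were lower by a small margin of 0.31 between the nearest values. The difference was -0.46 (SE 0.052, limma adjusted p = 0.00013), and the signal fell by 27.1%. This probe set is brighter than 99.3% of all. Of the 7 factors that fell, Zfp42 was the one with a change under 1.5-fold.

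Sall4 was the exception. Its brighter probe set read 12.28, 12.33, 12.37 and 12.36 in the luciferase arrays and 12.60, 12.48, 12.47 and 12.45 in the Ctr9 esiRNA arrays. The treated values were all higher, and Ctr9 esiRNA array 1 was the highest. The difference was 0.17 (SE 0.050, limma adjusted p = 0.0329), a rise of 12.4%. The call ended without any 1 of 7 arrays (limma adjusted p = 0.0513 to 0.085) and held only without Ctr9 esiRNA array 4 (0.0426). It also ended with either pair of luciferase arrays left out, at a threshold of 0.01, and with the replicate number as a block (limma adjusted p = 0.0913). The other Sall4 probe set went from 9.41 ± 0.034 to 9.45 ± 0.118 (SD, n = 4 each), a difference of 0.04 (95% interval -0.10 to 0.18) that did not pass. The interval of the brighter one ran from 0.06 to 0.28.

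**Figure D2:**
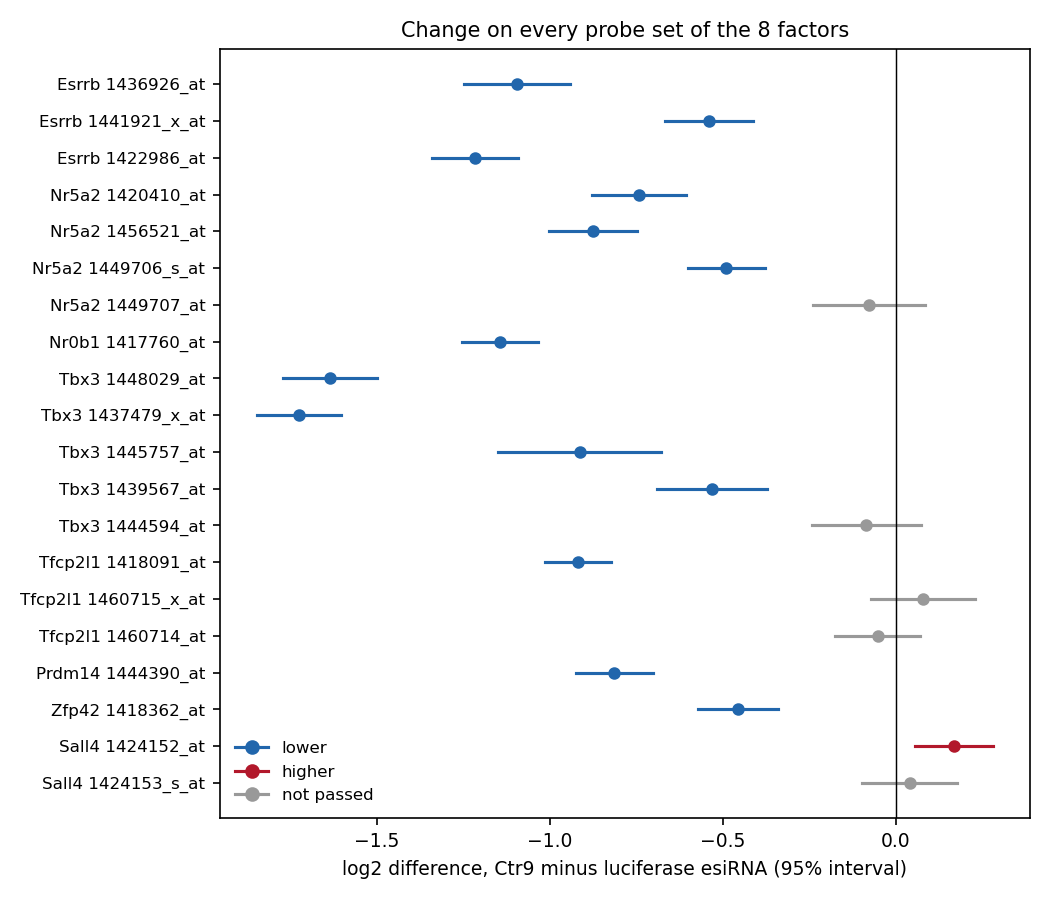
Log2 difference between Ctr9 and luciferase esiRNA arrays (x axis) with its 95% interval for each of the 20 probe sets (y axis), in blue where lower, red where higher and grey where the test was not passed. Of 20 probe sets 14 are lower, 1 is higher and 5 did not pass, and no gene has probe sets that passed in opposite directions.

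Over all 20 probe sets, 14 were lower and 1 was higher, where 13.1% and 11.8% of all 45037 probe sets were (24.9% in either direction). The groups lay wholly apart on the same 14 and 1, where 14.9% and 13.7% of all probe sets had groups apart in these directions. The probe sets that did not pass were mostly dim ones. Of 15 with a luciferase level above the median of all probe sets (5.75), 13 fell, 1 rose and 1 did not pass, at a median difference of -0.88. Of the 5 below it, 1 fell and 4 did not pass, at a median of -0.08. RMA, the method behind the deposited values, shrinks differences between weak signals.

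**Figure D3:**
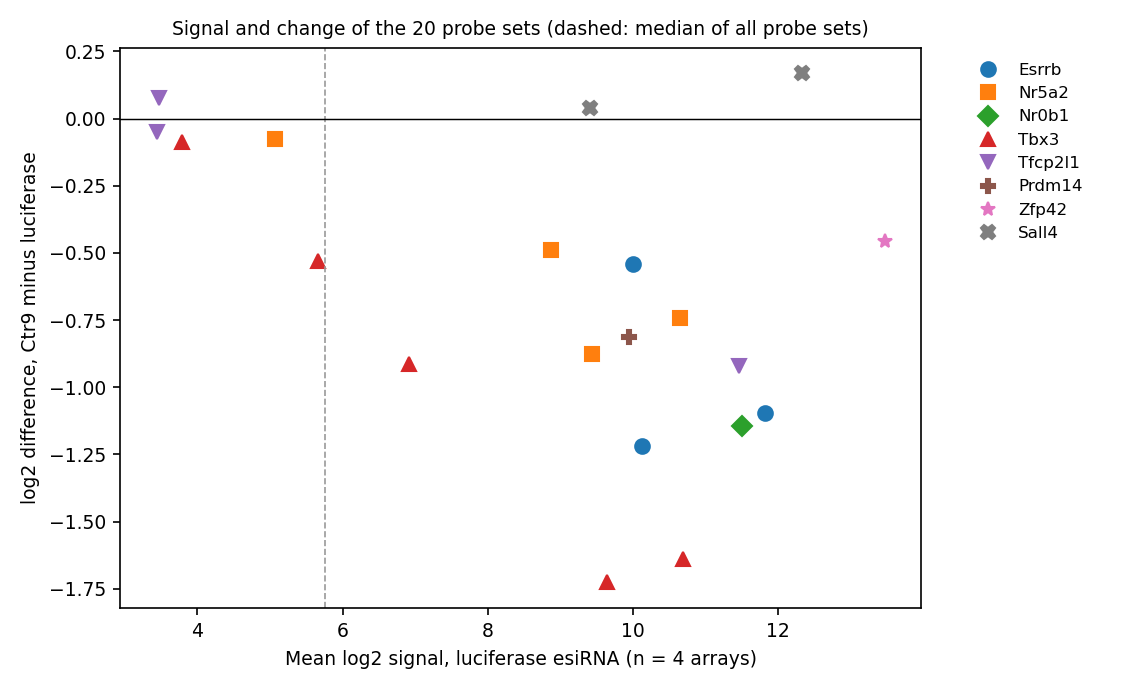
Mean log2 signal in the luciferase arrays (x axis) against the log2 difference between Ctr9 and luciferase esiRNA arrays (y axis) for the 20 probe sets, 1 symbol per gene, with the median of all probe sets as a dashed line. Probe sets left of the line lie close to 0 except 1 of Tbx3, and right of it only those of Sall4 lie above 0.

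In order of change on the brightest probe sets, Tbx3 was followed by Nr0b1, Esrrb, Tfcp2l1, Prdm14, Nr5a2, Zfp42 and Sall4. The change of Tbx3 exceeded that of Nr0b1 by 0.49, that of Nr5a2 exceeded Zfp42 by 0.29, and Zfp42 differed from Sall4 by 0.62. Each of these 3 steps gave p = 0.0286 (exact permutation of the 8 arrays, two-sided), the smallest that 4 against 4 allows, and p = 0.0667 after Benjamini-Hochberg adjustment over 7 neighbouring pairs. The 95% intervals of Tbx3 (-1.77 to -1.50) and Nr0b1 (-1.25 to -1.03) do not meet, nor do those of Nr5a2 (-0.88 to -0.61) and Zfp42 (-0.57 to -0.34). Nr0b1 and Esrrb differed by 0.05 (exact permutation p = 0.543) and Prdm14 and Nr5a2 by 0.07 (exact permutation p = 0.229), within the spread between arrays. The steps from Esrrb to Tfcp2l1 (0.18) and from Tfcp2l1 to Prdm14 (0.10) gave an exact permutation p of 0.0571 each (adjusted p = 0.08). Probe sets differ in their response, so this order is one of array differences.

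Within a group the 8 factors varied little and not in step. The largest SD of a brightest probe set was 0.115, that of Esrrb in the Ctr9 esiRNA arrays. Ctr9 esiRNA array 1 was the lowest of its group for 3 of the 8 genes (Esrrb, Nr0b1 and Tfcp2l1) and the highest for 3 others (Nr5a2, Zfp42 and Sall4). Luciferase array 4 was the highest control for 4 genes and the lowest for 0. The mean of luciferase arrays 1 and 2 differed from that of 3 and 4 by at most 0.138 (Nr5a2), and each of the 7 falls passed with either of these pairs left out.

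Genes whose 8 values followed a factor most closely were found by the root mean square difference over the 8 arrays, after the luciferase mean was subtracted. The nearest 2 genes are named for each factor that changed by at least 0.5. Closest to Tfcp2l1 were Slc29a1, a nucleoside transporter gene (0.039 log2 units), and Tcl1, which encodes a coactivator of Akt (0.047). Nr5a2 was followed by Slc25a20, a mitochondrial carnitine carrier gene (0.048), and Phf11d (0.054), and Prdm14 by the receptor gene Kit (0.048) and Pros1, the protein S gene (0.0595). The nearest to Nr0b1 were the junctional adhesion gene Jam2 (0.052) and the adenylate kinase gene Ak7 (0.066), and to Esrrb Kbtbd11 (0.072) and Tex14 (0.079). Tbx3 had its nearest at larger distances, the retinoic acid responsive Stra8 (0.131) and the peptidase gene Dpp4 (0.155). With only 2 groups, such closeness is mostly that of the size of the fall.

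The core factor genes changed less than most of the 8. Of 3, Nanog (-0.44, SE 0.044) and Pou5f1 (-0.20, SE 0.042), which encodes Oct4, fell, and the difference of -0.11 (SE 0.057) in Sox2 did not pass, though it did with a trended robust prior (limma adjusted p = 0.0367). No test set these changes against those of the 8 factors. The Pou5f1 call ended with luciferase arrays 3 and 4 left out (limma adjusted p = 0.0508). All 3 Kruppel-like factor genes, which act beside Esrrb and Tbx3 in the naive network, fell: Klf4 by 0.91 (SE 0.048), Klf5 by 0.50 (SE 0.054) and Klf2 by 0.46 (SE 0.068). Of all genes, 15.0% were lower by the same rule.

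Other genes of the ES cell state were split. Of 33 measured, 14 fell (15.0% of all genes did), 9 rose (15.8% of all) and 10 did not pass, at a median of -0.12. The 4 with the smallest adjusted p were all lower: the adhesion molecule gene Pecam1 by 1.13 (SE 0.057), Tcl1 by 0.97 (SE 0.051), the lysosomal enzyme gene Manba by 0.94 (SE 0.058) and the DNA demethylation enzyme gene Tet2 by 1.09 (SE 0.068). Among the 9 that rose, named after their values were seen, were Gbx2 (0.86), Lin28a (0.79) and Lefty1 (0.76). Of 13 genes of the LIF and STAT3 pathway, 5 fell and 1 rose, at a median of -0.10. Lifr, the LIF receptor gene, fell by 0.47 (SE 0.055, n = 3 luciferase values) on its brightest probe set, while its other 2 differed by 0.03 and -0.00, and Bcl3, a STAT3 target gene, fell by 0.49 (SE 0.069). The 1 that rose was Junb, by 0.37 (SE 0.086, n = 3 Ctr9 esiRNA values). The other 7 did not pass, among them Socs3 (-0.09) and Pim1 (0.13), named after their values were seen.

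Genes of the formative and primed epiblast went the other way. Of 17, 14 rose (15.8% of all genes did), 1 fell (15.0% of all) and 2 did not pass, at a median of 1.24. This list too was chosen with earlier results of these data known, so its count and median may partly reflect that choice. Zic5 (-0.28) was the one that fell, and Zic2 (-0.39) and Nkx1-2 (-0.03) did not pass, all named after their values were seen. Pou3f1, a POU factor gene, rose by 1.94 (SE 0.058), Fzd2, a Wnt receptor gene, by 1.98 (SE 0.068), and Fgf5, the growth factor of the primed epiblast, by 2.57 (SE 0.102). Dnmt3b, Dnmt3a, Grhl2 and Sall2, described elsewhere here, are in this list too. Fgf5 read 4.74 with luciferase esiRNA, below the median of all probe sets, and its other probe set rose by 1.01.

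**Figure D4:**
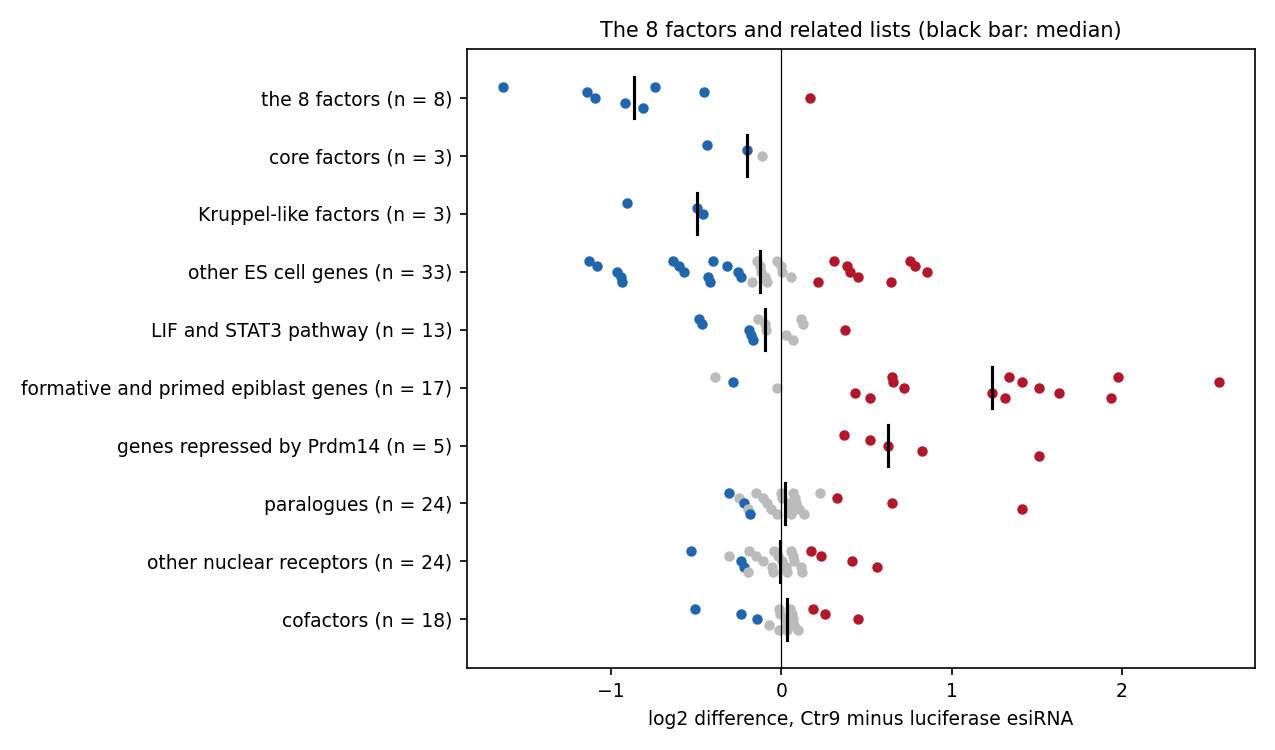
Log2 difference between Ctr9 and luciferase esiRNA arrays (x axis) of the 8 factors and of the genes of 9 related lists (y axis), 1 point per gene by its brightest probe set, blue where lower, red where higher and grey where not passed, with list medians as black bars. The 8 factors have a median of -0.87 and the formative and primed genes one of 1.24, while paralogues, other nuclear receptors and cofactors lie around 0. The lists were chosen with earlier results of these data known.

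Relatives of the 8 factors by sequence family passed about as often as all genes, of which 15.0% were lower and 15.8% higher. Of 24 measured paralogues, 3 fell, 3 rose and 18 did not pass, at a median of 0.02. Sall2, a spalt gene, rose by 1.41 (SE 0.171), and its luciferase arrays were the more spread (SD 0.408 against 0.140, n = 4 each). The grainyhead-like genes Grhl2 (0.65, SE 0.055) and Grhl1 (0.33, SE 0.046), relatives of Tfcp2l1, rose, the first by less on its other probe sets (0.19 to 0.25, with 1 of 3 passing), and Prdm16 fell by 0.31 (SE 0.072). The relatives of Tfcp2l1 were split, since Tfcp2 (-0.22, limma adjusted p = 0.0241) and Grhl3 (-0.19, limma adjusted p = 0.0264), named after their values were seen, fell. The receptor paralogues in the list, named after their values were seen, were Esrra, which differed by -0.20 (limma adjusted p = 0.0583), Esrrg by -0.15 (0.159), Nr5a1 by 0.07 (0.494) and Nr0b2 by 0.06 (0.534), and none passed. Among 24 other nuclear receptor genes, 3 fell, 4 rose and 17 did not pass, at a median of -0.01, again near the shares of all genes. Rarg, a retinoic acid receptor gene, fell by 0.53 (SE 0.048), and Nr2f6 (0.56, SE 0.052) and Nr6a1 (0.23, SE 0.047), the germ cell nuclear factor gene, rose.

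Cofactors of the 8 factors were split as well, with 3 of 18 lower, 3 higher and 12 not passed, at a median of 0.03. These counts are near the shares of all genes (15.0% lower, 15.8% higher). Cbfa2t2, whose product is a partner of Prdm14, fell by 0.24 (SE 0.043), though 1 of its other probe sets differed by only -0.09. Ncoa1, a nuclear receptor coactivator gene, fell by 0.51 (SE 0.053). Rbbp7, a histone-binding subunit of NuRD, rose by 0.45 (SE 0.046), on both of its probe sets. Mta1, another NuRD gene, rose by 0.26 (SE 0.057) on its brightest probe set only (-0.00 on the other).

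Markers of other cell types were read too, beside 15.0% of all genes lower and 15.8% higher. Of 12 trophoblast markers, 9 were higher and none lower, and their summed signal on the linear scale ran from 2253 to 2631 in the luciferase arrays and from 5502 to 5914 in the Ctr9 esiRNA arrays. The keratin genes Krt8 (2.61, SE 0.071) and Krt18 (2.39, SE 0.045) and the lineage factor gene Cdx2 (1.39, SE 0.094) were among those with the smallest adjusted p. Without the marker brightest in the luciferase arrays, Tfap2c (-0.13, not passed), the sums of the other 11 were 1094 to 1141 and 4289 to 4723. In the Ctr9 esiRNA arrays Krt8 (mean 10.82) and Krt18 (10.74) were the brightest of the 12 and weigh most in the sums. Sums without the keratins were not taken. Elf5 (0.05) and Tpbpa (-0.01), named after their values were seen, did not pass either. Of 12 primitive endoderm markers 3 rose and 2 fell, with summed signals of 1436 to 1555 and 1161 to 1324. That direction rested on the laminin gene Lama1, which fell by 1.07: without it the other 11 summed to 639 to 688 in the luciferase and 832 to 912 in the Ctr9 esiRNA arrays, with 1 empty luciferase value of Sox7 not counted. These 11 did not rise together. Foxa2 (1.98), Dab2 (1.26) and Amn (0.29) rose, and Hnf4a (-0.16) fell. Gata4 (0.07), Gata6 (-0.12) and Sox17 (-0.24), named like Hnf4a after their values were seen, were among the 7 that did not pass. Of 9 neural markers 3 rose and 1 fell (957 to 1025 and 1029 to 1112), and of 12 fibroblast markers, for feeder cells, 2 rose and none fell (426 to 460 and 481 to 500). Most markers of feeder cells, 9 of 12, read below the median of all probe sets in the luciferase arrays. The part of such cells in the falls of the 8 factors was not tested.

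Each array had an upper quartile from 8.10 to 8.15, but quantile scaling within RMA brings such values together. This narrow range therefore cannot show whether the hybridizations were alike in depth of signal. Pairs of arrays within a group had correlations of 0.997 to 0.998, and pairs from different groups 0.992 to 0.994. The Ctr9 signal differed little between the groups, so the array values did not show a strong knockdown. No source used here states which stretch of Ctr9 mRNA the esiRNA was made from, and no other measure of the knockdown was available. Of 5 Ctr9 probe sets the brightest read 10.12, 10.18, 10.21 and 10.26 with luciferase and 10.09, 10.13, 10.13 and 10.07 with Ctr9 esiRNA, a difference of -0.09 that did not pass (exact two-sided permutation p = 0.0857). A pair of dimmer ones fell by 0.15 and 0.18, another rose by 0.29 and the last differed by 0.27 without passing. Both groups are called by their labels. The 3′ minus 5′ signal of the Gapdh control, a measure of RNA integrity, was -0.019 ± 0.0060 with luciferase and -0.017 ± 0.021 with Ctr9 esiRNA (SD, n = 4 each; permutation test, exact and two-sided, p = 0.886).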

How the data were processed

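The 8 one-colour Affymetrix arrays of total RNA were compared between 4 luciferase and 4 Ctr9 esiRNA samples. Values were deposited as log2 signals per probe set, for which the submitters' processing notes name GCOS 1.4 and RMA; their settings were not given in the sources used. Quantile scaling within RMA hides any shift common to every transcript. No further scaling or filter was applied; 64 control probe sets were left out. Of 45037 probe sets, 34945 carry a single symbol per the platform annotation, 932 carry several (left unnamed) and 9160 none; names were brought up to date through Entrez identifiers (34741 matched, GRCm38.p6 table). No probe set of the 8 factors has an empty value. A gene's value is that of its brightest single-symbol probe set over the 8 arrays. Groups were compared with limma 3.58.1 in R 4.3.3 (lmFit, eBayes, no trend) and Benjamini-Hochberg adjustment over all probe sets; SE is limma's. On simulated arrays for this comparison with 45037 probe sets, 96% of planted changes of 1 log2 unit, 78% of 0.5, 34% of 0.3 and 2% of 0.2 were found. Only 50 changes of each size were planted, and 108 probe sets were called, against 11209 in the data. The adjustment was therefore stricter there, and these shares do not give the power in the data. Precision is limited by the array number. The genes and lists were chosen with earlier results of these data known. From each list, up to 4 genes with the smallest adjusted p could be named; of 197 list entries 185 were measured. The alternatives comprised dim-signal filters, other scalings, priors and weights, a replicate block, left-out arrays, stricter thresholds and other probe sets of a gene. Figures were drawn with matplotlib 3.10.9.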

Additional observations from a re-analysis of the deposited data

Results flagged for a closer look

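Among 146 groups of 4 values examined, 6 held a value that stood apart from the other 3 by more than Dixon's 95% limit for the gap over the group's range; chance gives about 1 in 20 groups. Among the factors these were dimmer probe sets. On the third Tbx3 probe set, Ctr9 esiRNA array 4 read 6.16 against 5.94 to 5.96 in the others (ratio 0.91), still below the lowest control. On the dimmest Tfcp2l1 probe set the same array read 3.33 against 3.40 to 3.42 (ratio 0.841). The others were Nr6a1 in Ctr9 esiRNA array 3 (9.82 against 9.88 to 9.89, ratio 0.895), Col1a2 in Ctr9 esiRNA array 1 (6.56 against 6.27 to 6.31, ratio 0.861), Lama1 in the same array (8.36 against 8.65 to 8.71, ratio 0.834) and Plac1 in luciferase array 4 (4.95 against 5.07 to 5.08, ratio 0.867). No brightest probe set of the 8 factors was among them.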

How the results depend on the processing

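All 7 falls passed under each alternative run, with 2 exceptions: Zfp42 did not reach a change of 1.5-fold, and Tfcp2l1 read by its second brightest probe set differed by 0.0783 (limma adjusted p = 0.466). The second brightest probe set also turned the direction of Lifr (0.0300) and Mta1 (-0.0041), and gave -0.155 for Ctr9. Genes with 1 probe set kept it there. Over the alternatives Tbx3 ran from -1.73 to -0.98, Esrrb from -1.15 to -0.54 and Nr5a2 from -0.88 to -0.55, the ends near 0 coming from other probe sets. The count of factors higher, 1 (Sall4, 1 probe set), became 0 with the replicate block, with luciferase arrays 1 and 2 or 3 and 4 left out, under both stricter thresholds, with probe sets averaged per gene and with the second brightest; leaving out 1 array gave 0 to 1. Stricter thresholds left 7000 probe sets called at 0.01 and 1687 at 1.5-fold, of 11209; at 1.5-fold, 8 list genes were lower and 18 higher, of 34 and 35. With the replicate number as a block 9771 probe sets were called, the 7 falls held, and the adjusted p of Sall4 was 0.0913. Same-numbered arrays deviated together with correlations of only -0.078 to 0.063, and 2 of 4 luciferase arrays correlated best with their own number. So few arrays cannot decide whether the numbers pair the samples. The median difference of all probe sets was -0.0080 as deposited and -0.0057, 0.00055 and -0.00022 after quantile, median and loess scaling. No detection call was available, so dim probe sets set the limit.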
